A study of Caenorhabditis elegans with 2 samples.

Results

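The SL2 spliced leader RNA genes described here were sls-2.1, sls-2.2, sls-2.4, sls-2.8 and sls-2.9, 5 of the 18 genes annotated as sls-2 in Caenorhabditis elegans. They were picked because each has a peak of the transcription factor NHR-12 in the authors' reproducible set, so their signals and ranks are given as description and were not tested. NHR-12, a nuclear hormone receptor, was mapped by ChIP-seq, in which chromatin bound by a protein is precipitated with an antibody and its DNA sequenced. There was 1 group with 2 biological replicates, no second condition, and 1 control used by the authors in peak calling whose reads were not analysed here. Both replicates were whole L1 larvae, the first larval stage, of strain OP318, with the genotype unc-119(ed3) III; wgIs318, males and females pooled, of unknown age. The antibody is labelled nhr-12. The animals carried an insertion that gave stable expression of NHR-12 with GFP and FLAG at its C-terminus. The labels name neither the promoter that drives the transgene nor the cells that express it, and no cell type can be told apart in whole larvae.

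In nematodes many genes lie in operons, which are transcribed as 1 long RNA and then cut into separate messenger RNAs. Trans-splicing joins a short leader, donated by a small nuclear RNA, to the 5′ end of each of them. The SL2 RNA family donates the leader mainly to genes that follow the first in an operon, while SL1 RNA serves first genes and genes outside operons. SL RNA genes are short, have no introns and are transcribed by RNA polymerase II from a compact promoter directly upstream, which in nematodes is bound by the SNAPc complex.

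Gene sequences of 3 of the picked genes and of sls-2.5, an SL2 gene with no region in any list, are shown first because the leader sets the groups used further on. They were read 5′ to 3′ on the gene strand from the RefSeq genome of assembly WBcel235, with the leader up to the splice donor in capitals. The genes lie at chrII:5844865-5844974 (sls-2.1, plus strand), chrII:5543598-5543707 (sls-2.2, plus), chrIII:12250465-12250575 (sls-2.8, plus) and chrIII:7140447-7140553 (sls-2.5, minus).
sls-2.1: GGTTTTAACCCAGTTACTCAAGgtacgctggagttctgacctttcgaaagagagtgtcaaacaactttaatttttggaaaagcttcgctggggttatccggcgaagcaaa
sls-2.2: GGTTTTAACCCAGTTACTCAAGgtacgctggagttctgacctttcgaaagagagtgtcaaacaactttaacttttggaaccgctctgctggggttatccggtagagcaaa
sls-2.8: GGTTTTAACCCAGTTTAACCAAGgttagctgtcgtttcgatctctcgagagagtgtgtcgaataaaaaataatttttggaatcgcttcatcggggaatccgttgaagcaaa
sls-2.5: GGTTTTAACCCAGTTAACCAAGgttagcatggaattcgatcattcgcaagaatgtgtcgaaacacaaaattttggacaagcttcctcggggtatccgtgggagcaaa

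The 100 bases directly upstream of 6 SL2 genes are shown because SL RNA promoters lie directly upstream and the genes are compared over this window further on. The capitals mark bases 65 to 51 before the annotated 5′ end. The windows are chrII:5844765-5844864 (sls-2.1, plus), chrII:5543498-5543597 (sls-2.2, plus), chrII:5544274-5544373 (sls-2.3, minus), chrIII:12250365-12250464 (sls-2.8, plus), chrIII:11090524-11090623 (sls-2.14, minus) and chrIV:5261813-5261912 (sls-2.12, plus). The genes sls-2.1, sls-2.2 and sls-2.8 are picked genes and sls-2.3 is the neighbour of sls-2.2. The gene sls-2.14 had a weaker joint region, and sls-2.12 had no region in any list.
sls-2.1: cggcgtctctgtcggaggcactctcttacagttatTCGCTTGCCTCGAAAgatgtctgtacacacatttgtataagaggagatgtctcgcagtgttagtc
sls-2.2: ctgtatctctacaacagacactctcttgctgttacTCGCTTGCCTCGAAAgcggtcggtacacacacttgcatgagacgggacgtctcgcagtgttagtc
sls-2.3: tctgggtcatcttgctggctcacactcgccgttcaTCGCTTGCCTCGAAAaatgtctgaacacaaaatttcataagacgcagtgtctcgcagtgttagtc
sls-2.8: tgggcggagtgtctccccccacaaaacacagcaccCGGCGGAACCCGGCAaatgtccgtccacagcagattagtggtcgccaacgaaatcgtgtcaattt
sls-2.14: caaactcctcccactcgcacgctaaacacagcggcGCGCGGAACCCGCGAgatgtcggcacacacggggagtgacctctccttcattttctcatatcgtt
sls-2.12: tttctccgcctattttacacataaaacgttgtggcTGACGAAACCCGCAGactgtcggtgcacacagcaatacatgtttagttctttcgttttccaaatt

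The authors deposited 4 lists of regions on build ce11. Replicate 1 had 26878 regions of 396 bp and replicate 2 had 30000 of 364 bp, both with background regions included. The joint list, called on both replicates together, had 3817 regions of 376 bp and is likewise labelled as peaks and background. The IDR set, the 164 joint regions that passed the authors' threshold on the irreproducible discovery rate, was the reproducible set that picked the genes. A gene counted as listed when the midpoint of a region lay within 500 bp of it, and this midpoint is the point that the file gives for the region. Signal is a score of the peak caller with no stated scale, so the rank by signal within a list, with 1 as the strongest, was used to place a region. The median signal was 51.4 in the IDR set, 19.7 in the joint list, 8.03 in replicate 1 and 6.96 in replicate 2. Of the 164 IDR regions 146 were nuclear, and their highest signal was 130. The lists hold no read counts, so depth was unknown, and a signal has no error of its own. The replicate lists went into the joint list and are not independent of the choice of genes.

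By this rule 6 of 18 sls-2 genes, or 33.3%, were listed in the IDR set, against 0.514% of 46890 nuclear genes, 0.841% of protein-coding genes and 2.02% of 99 snRNA genes that were neither sls-1 nor sls-2. Those snRNA genes were T11F9.15 and WBGene00014543, named after their values had been seen. The choice of genes used this list, so nothing is read from the difference. The sixth gene was sls-2.3, which was listed only through the peak at sls-2.2. In the joint list 10 of 18 sls-2 genes were listed, or 55.6%, against 9.85% of nuclear genes, 14.3% of protein-coding genes and 12.1% of other snRNA genes. In replicate 1 it was 10 of 18, or 55.6%, against 45.4% of nuclear genes, 57.9% of protein-coding genes and 31.3% of other snRNA genes. In replicate 2 it was 13 of 18, or 72.2%, against 48.4% of nuclear genes, 64.2% of protein-coding genes and 37.4% of other snRNA genes. Genes listed in both replicates were 9 of 18 sls-2 genes, or 50%, against 27.3% of nuclear genes, 43.5% of protein-coding genes and 20.2% of other snRNA genes. The joint list and both replicate lists hold background regions, so a region there says little without its rank. The replicate lists also cover many genes. The weakest IDR region had a signal of 37.05 and the strongest joint region outside the set also had 37.05, while the 6 IDR regions at the picked genes ran from 40.6 to 88.5.

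**Figure D1:**
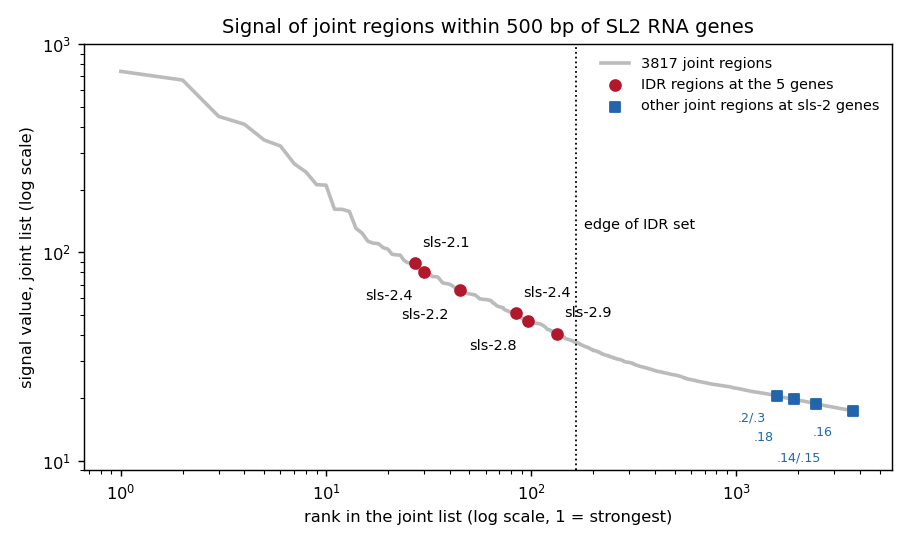
Signal (caller score, log axis) against rank (log axis) for the joint list as a grey line, with regions within 500 bp of an sls-2 gene as points and the edge of the IDR set dotted. The 6 IDR regions at the picked genes had ranks from 27 to 134, and the joint regions at sls-2 genes outside the set had signals from 17.3 to 20.4.

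The peak at sls-2.1 (WBGene00004833) was the strongest of the 5 genes in the joint list. On chromosome II the IDR region ran from 5844735 to 5845110 with a signal of 88.5, rank 27 of 164, and its midpoint lay inside the gene, 58 bp downstream of the 5′ end. Replicate 1 had a region of signal 38.2, rank 37 of 26878, at 45 bp, and replicate 2 one of signal 48.0, rank 15 of 30000, at 57 bp. The replicate midpoints were 12 bp apart, and both lay within the 110 bp of the gene, while the regions reached past it on both sides. Each replicate also had a second, weaker region downstream, with a signal of 8.10 and rank 13074 in replicate 1 and 10.1 and rank 4069 in replicate 2. The nearest protein-coding 5′ end was that of ZK1248.17, on the opposite strand 618 bp from the midpoint. The 3′ end of nep-25, named as a neprilysin metallopeptidase, lay at 5844620, before the region began.

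At sls-2.2 (WBGene00004834) the IDR region covered the gene, but its midpoint lay past it. The region ran from 5543561 to 5543936 on chromosome II with a signal of 65.9 and rank 45, and the midpoint was 151 bp downstream of the 5′ end, 42 bp beyond the 3′ end of the gene. Replicate 1 had signal 31.5, rank 47, at 181 bp, and replicate 2 had 36.7, rank 37, at 163 bp, so that both replicates put the midpoint on the downstream side. Further second regions lay downstream, with a joint signal of 20.4 (rank 1579), replicate 1 14.9 (rank 836) and replicate 2 12.8 (rank 1264). The gene sls-2.3 lies at 5544164 to 5544273 on the opposite strand, 457 bp away and tail to tail with sls-2.2. The IDR midpoint was 415 bp from sls-2.3 and 524 bp from its 5′ end, and 1 replicate 2 region of signal 8.94, rank 6679, had its midpoint in sls-2.3 itself. From position alone, a peak of sls-2.2 and a peak between the genes cannot be told apart. The noncoding RNA C17C3.23 overlaps sls-2.2 on the other strand, with its 5′ end 51 bp from the midpoint. The nearest protein-coding 5′ end was that of ins-13, an insulin-like peptide gene, 1115 bp away.

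The gene sls-2.4 (WBGene00004836, chromosome I, 4172206 to 4172315) was the only picked gene with 2 IDR regions. The first ran from 4172001 to 4172376 with a signal of 80.8, rank 30, and its midpoint lay 17 bp upstream of the 5′ end. The second ran from 4172207 to 4172582 with a signal of 51.0, rank 84, and its midpoint lay 189 bp downstream. In replicate 1 the upstream region had signal 31.6, rank 46, at 18 bp upstream, and the downstream region had 30.5, rank 51, at 187 bp. In replicate 2 the values were 49.5, rank 12, at 59 bp upstream, and 29.8, rank 62, at 149 bp downstream. The upstream region was thus the stronger in each list, by little in replicate 1 and by more in replicate 2. The 2 IDR midpoints were 206 bp apart, less than the width of either region, and the regions overlapped. This was the smallest spacing between neighbouring IDR midpoints, and the 1 spacing under 300 bp among 140. The noncoding RNA R12E2.18 overlaps the gene on the other strand. The 5′ end of egg-5, whose protein acts in the oocyte-to-embryo transition, was 600 bp upstream of the first midpoint, and the second region overlapped 145 bp at the 3′ end of R12E2.11.

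At sls-2.8 (WBGene00004840) the IDR region covered the whole gene, from 12250346 to 12250721 on chromosome III. Its signal was 46.95, rank 96, with the midpoint 69 bp downstream of the 5′ end. Replicate 1 had signal 24.9, rank 79, at 16 bp, and replicate 2 had 23.3, rank 126, at 17 bp. The replicate midpoints were 1 bp apart, and both lay closer to the 5′ end than the joint midpoint. Other genes start close by. The 5′ end of the protein-coding gene Y75B8A.23 was 126 bp downstream of the midpoint on the same strand, and the region reached 62 bp into it. The gene tim-1, a timeless-related gene of sister chromatid cohesion, starts on the other strand 370 bp upstream, and the noncoding RNA Y75B8A.49 lies opposite sls-2.8 with its 5′ end 38 bp from the midpoint.

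The weakest of the 5 genes was sls-2.9 (WBGene00004841, chromosome I, 13297877 to 13297985), and its region lay farthest upstream. The IDR region ran from 13297561 to 13297936 with a signal of 40.6, rank 134 of 164, and its midpoint was 128 bp upstream of the 5′ end. Replicate 1 had signal 17.4, rank 343, at 81 bp upstream, and replicate 2 had 24.3, rank 107, at 131 bp upstream. This was the picked gene that placed outside the strongest 164 regions of 1 replicate, and its replicate midpoints were the farthest apart, at 50 bp. A tRNA gene, WBGene00014446, lies at 13297673 to 13297745 on the other strand, inside the region, and the midpoint was 4 bp upstream of the tRNA 5′ end. It was therefore closer to the tRNA start than to the sls-2.9 start. The noncoding RNA M01E5.8 overlaps the same tRNA, and the flanking protein-coding genes are top-1, a topoisomerase gene, and sepa-1, which functions in autophagy of P granule proteins and starts 2967 bp away.

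**Figure D2:**
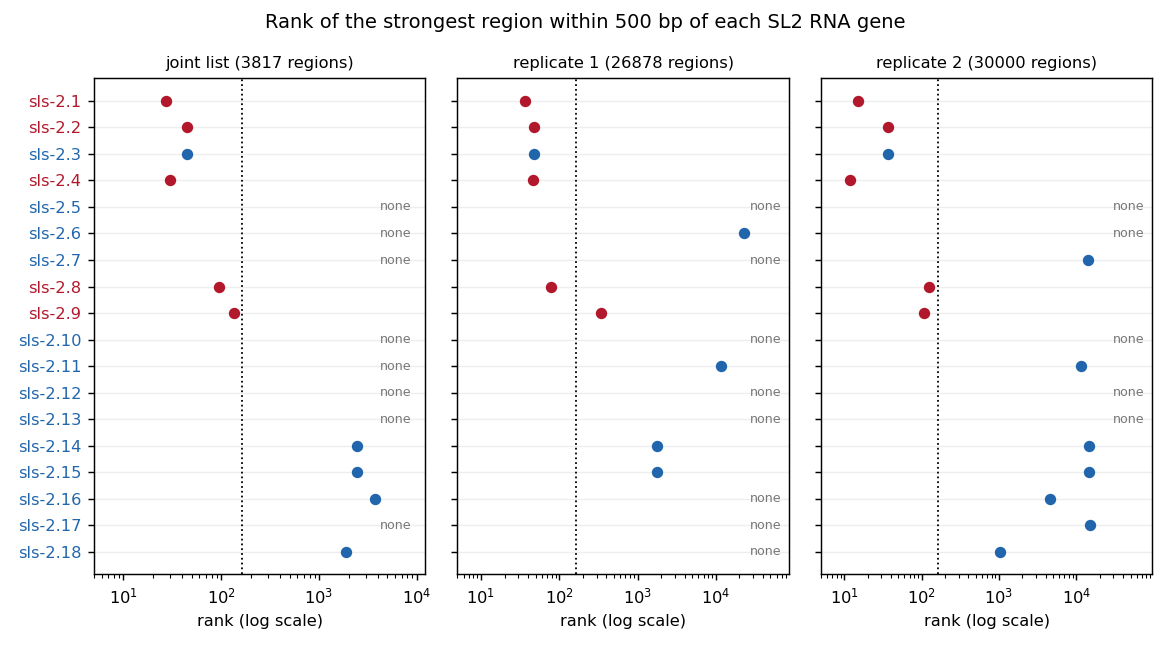
Rank by signal (log axis, 1 at the strong end) of the strongest region within 500 bp of each sls-2 gene in the joint, replicate 1 and replicate 2 lists, with picked genes in red, other sls-2 genes in blue and the size of the IDR set dotted. In the replicates the picked genes held ranks from 12 to 343 and the other genes ranks of 1025 or weaker, except sls-2.3, which is placed by the regions at sls-2.2. These ranks count every region of a list, nuclear or not.

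By joint signal sls-2.1 stood first, followed by sls-2.4 and sls-2.2, then by sls-2.8, and sls-2.9 stood last. In replicate 2 sls-2.4 ranked 12 and sls-2.1 ranked 15, and sls-2.9 at rank 107 stood above sls-2.8 at 126. In replicate 1 sls-2.1 ranked 37, sls-2.4 46 and sls-2.2 47, while sls-2.8 ranked 79 and sls-2.9 ranked 343. Of the 26878 replicate 1 regions 26857 were nuclear, against all 30000 in replicate 2, so raw ranks differ in basis. Among nuclear regions only, replicate 1 put sls-2.1 at 18, sls-2.4 at 26 and sls-2.2 at 27. In that ranking sls-2.8 stood at 59 and sls-2.9 at 323. The rank of sls-2.2 was then better in replicate 1 than its 37 in replicate 2, the reverse of the raw ranks. Both replicates kept sls-2.1, sls-2.2 and sls-2.4 above sls-2.8 and sls-2.9. Within these sets of 3 and 2 genes the replicates did not give 1 order. The −log10 q-value of the joint list was at its top value of 1.08 for all 6 IDR regions at the picked genes, a value shared by 200 joint regions. In replicate 1 the strongest region was at the top value of 1.07 for 4 genes and at 0.984 for sls-2.9. In replicate 2 all 5 genes were at the top value of 2.23, shared by 253 regions.

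The midpoints did not sit at 1 fixed place on the gene. The strongest IDR region of each gene lay between −128 and +151 bp relative to the 5′ end, positive being downstream, with a median of +58 bp over the 5 genes. From the strongest regions of replicate 1 alone the median was +16 bp, and from those of replicate 2 alone +17 bp. Replicate midpoints for the same gene differed by 12 bp at sls-2.1, 18 bp at sls-2.2, 41 bp at sls-2.4, 1 bp at sls-2.8 and 50 bp at sls-2.9. The spread between genes was larger than that between replicates, with sls-2.2 downstream and sls-2.9 upstream in both. Second regions followed the strongest one at sls-2.1, sls-2.2, sls-2.4 and sls-2.8 in at least 1 list, and 1 more followed at sls-2.2 in replicate 2. Counted over the joint and both replicate lists, the 10 pairs of neighbouring midpoints were 199 to 278 bp apart, with a median of 205.5 bp. The same places recur between lists, so these pairs are not separate observations. The closest neighbouring midpoints anywhere in the joint or either replicate list were 199 bp apart. Spacings under 300 bp made up 1.82% of the joint list, 7.55% of replicate 1 and 6.51% of replicate 2. The second regions therefore stood near the smallest spacing that the lists contain, and what sets that limit was not tested.

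**Figure D3:**
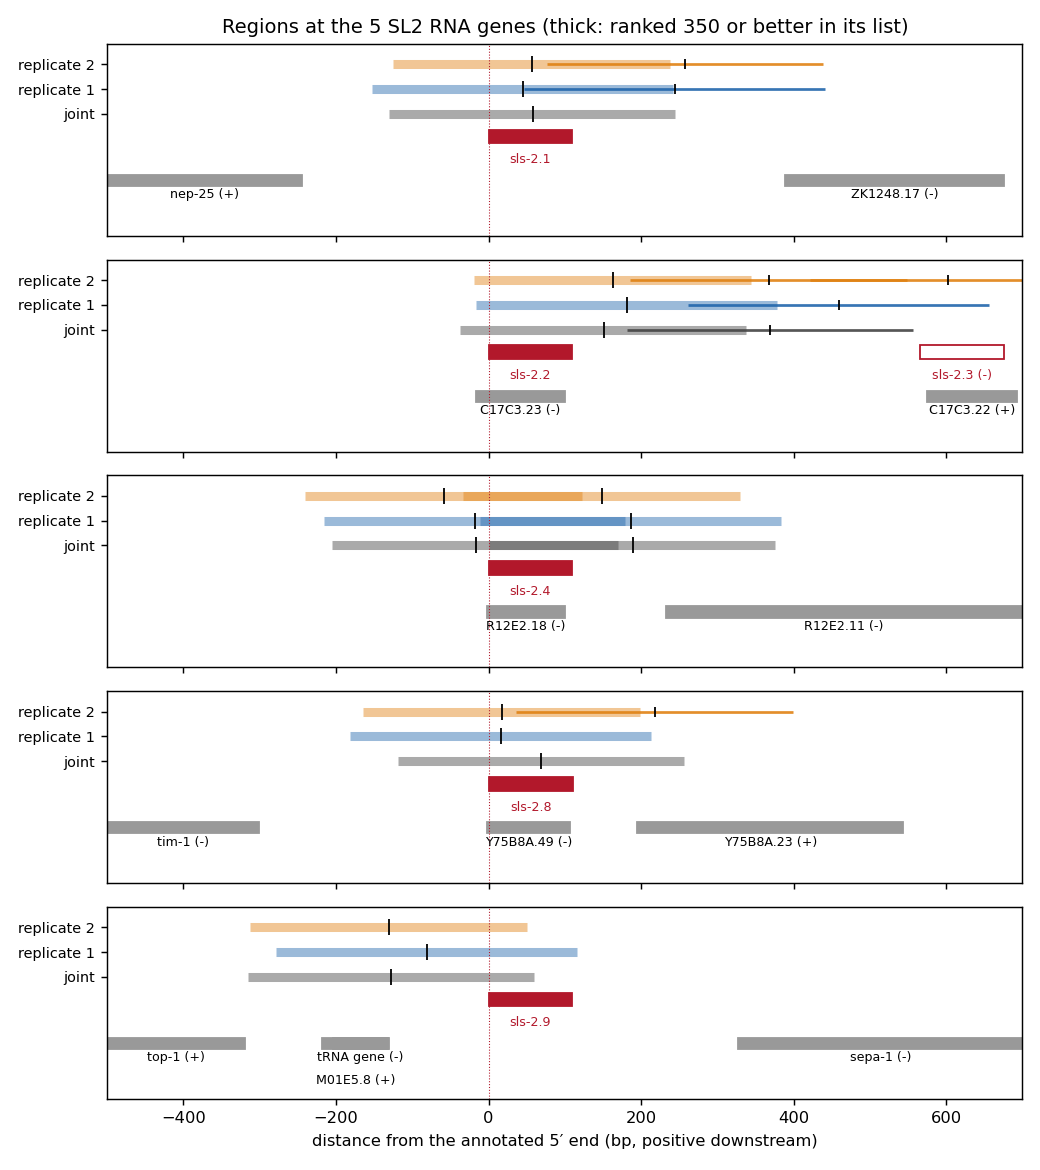
Regions around each of the 5 picked genes in the joint, replicate 1 and replicate 2 lists, drawn to scale against distance in bp from the annotated 5′ end, with midpoints as ticks, the sls-2 gene in red, neighbouring genes in grey and sls-2.3 as an outline. Thick lines are regions of rank 350 or stronger in their list. The strong midpoints at sls-2.2 lay 151 to 181 bp downstream and those at sls-2.9 81 to 131 bp upstream.

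Of the 13 other sls-2 genes, 5 were listed in the joint list, 5 in replicate 1, 8 in replicate 2 and 4 in both replicates. Of all nuclear genes 9.85% were listed in the joint list, 45.4% in replicate 1, 48.4% in replicate 2 and 27.3% in both replicates. Each count of the other sls-2 genes includes sls-2.3, the neighbour of sls-2.2. The 4 joint regions at sls-2 genes that were not in the IDR set had signals from 17.3 to 20.4. These included the second region between sls-2.2 and sls-2.3. The −log10 q-values of these 4 regions ran from 0.0175 to 0.104, against 1.08 for the IDR regions at the picked genes. A region at sls-2.18 had a joint signal of 19.7 (rank 1903) and a replicate 2 signal of 13.3 (rank 1025), with none in replicate 1. The genes sls-2.14 and sls-2.15, head to head and 487 bp apart, shared a joint region of signal 18.8 (rank 2443), 284 bp upstream of sls-2.14. Near that place replicate 1 had a signal of 10.7 (rank 4765) at 274 bp upstream. Replicate 2 had 7.06 (rank 14436) at 289 bp upstream. A stronger replicate 1 region, of signal 13.0 (rank 1777), lay closer to sls-2.14, at 70 bp upstream. At sls-2.16 the joint signal was 17.3 (rank 3691) and the replicate 2 signal 9.80 (rank 4566), again with none in replicate 1. The genes sls-2.5, sls-2.10, sls-2.12 and sls-2.13 had no region in any list. All 5 picked genes lie on the plus strand, as do 5 of the 13 others, and gene length ran from 107 to 114 bp over the 18.

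The 18 genes carried 11 leader forms of 21 to 23 bases. The 22-base form shown for sls-2.1 was carried by 4 genes, sls-2.1, sls-2.2, sls-2.3 and sls-2.4, and all 4 were listed in the IDR set, sls-2.3 through its neighbour. The 14 genes with the 10 other forms included 2 listed genes, sls-2.8 with a 23-base leader and sls-2.9 with a 21-base leader, each the sole carrier of its form. The second most frequent form, shown for sls-2.5, was carried by sls-2.5, sls-2.6 and sls-2.7, and none of these was listed in the IDR set. Of all nuclear genes 0.514% were listed in that set. The IDR set also picked the genes, so nothing is read from the split of listed genes between leader forms. The 4 genes with the first form also resembled each other along their length, with identity of 90.9% to 97.3% between genes and a median of 94.1%. Over all 18 genes the median identity was 76.1%, with a range of 66.1% to 99.1%. Genes as similar as sls-2.10 and sls-2.11, at 99.1%, had no region of rank better than 11614.

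Upstream of the gene the same 4 genes were alike too. Identity over the 100 upstream bases was 67.0% to 79.0% between them with a median of 70.5%, against a median of 53.6% over all 18 genes. The word TCGCTTGCCTCGAAA stood at bases 65 to 51 before the 5′ end in each of the 4 genes. Searched on both strands, it occurred 4 times in the nuclear genome, which are these 4 sites, and 2 of the 4 lay inside an IDR region, at sls-2.1 and sls-2.4. Among the 100-base windows upstream of 46886 nuclear genes, 0.00853% held it on the gene strand. At sls-2.2 the strongest region began 28 bp past the start of this stretch in the joint list, 48 bp past it in replicate 1 and 46 bp past it in replicate 2, so that it was not covered in any list. The words AACCCGCG and ACCCGCGA, which overlap by 7 letters, stood at the same place in 6 other sls-2 genes, sls-2.5, sls-2.7, sls-2.14, sls-2.15, sls-2.16 and sls-2.18, and in no picked gene. On the gene strand 0.0853% and 0.0746% of the windows held them, and on either strand 0.119% and 0.102%. The longest word common to all 5 picked genes in these windows had 4 letters, a length that is frequent in any window. In the marked stretch sls-2.8 shared 13 of 15 letters with sls-2.7 and 6 with sls-2.1, and sls-2.9 shared 4 with sls-2.1. These words were found by comparing the genes themselves and describe letters, not binding sites.

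**Figure D4:**
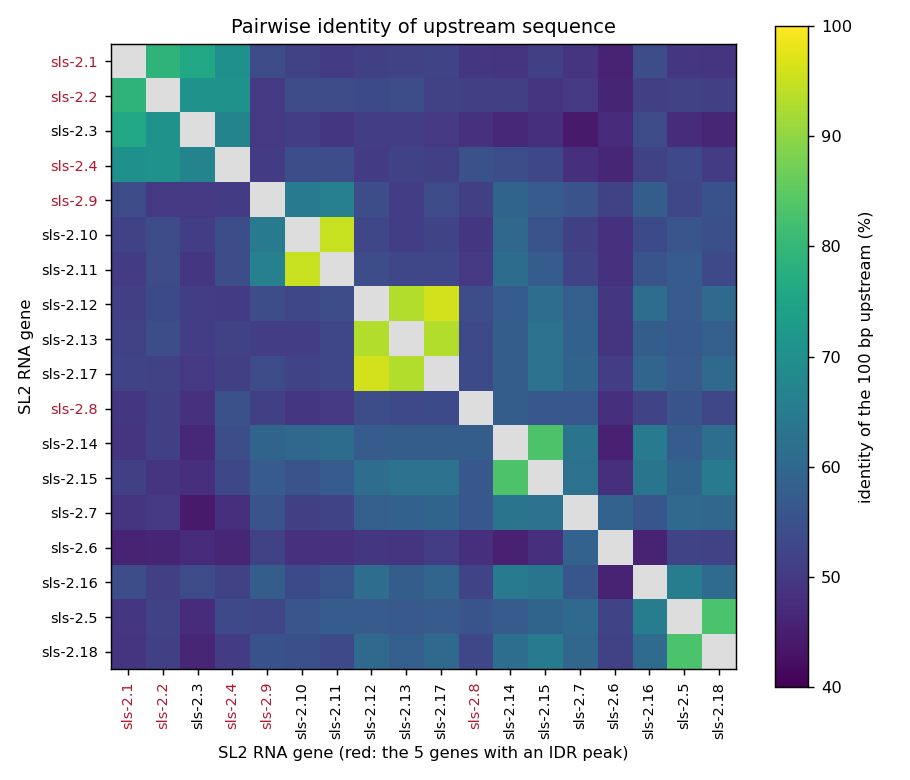
Percent identity over the 100 bases upstream between each pair of the 18 sls-2 genes, as a heat map with the picked genes marked. The block of sls-2.1, sls-2.2, sls-2.3 and sls-2.4 holds values from 67.0% to 79.0%, and sls-2.12, sls-2.13 and sls-2.17, which have no joint region, form a block from 93.0% to 96.0%.

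Near-identical copies can share sequencing reads, so the share of unique sequence was set beside the listing. Uniqueness was counted over the nuclear and mitochondrial genome. Of the 36-base words in each gene with 500 bp on both sides, 89.5% to 100% occurred once at the 5 picked genes, with a median of 95.2%. At the 13 other genes the share was 69.7% to 100%, with a median of 93.3%. Inside the gene alone the share was 41.3% at sls-2.1, 53.3% at sls-2.2 and 78.7% at sls-2.4, while sls-2.8 and sls-2.9 were at 100%. Among the other genes it ran from 33.3% at sls-2.12 to 100%, with 48.6% at both sls-2.10 and sls-2.11. The median inside the gene was 78.7% for the picked and 93.2% for the other genes, the reverse of the order of the window medians. With 50-base words the medians over the windows were 96.4% for the picked and 96.7% for the other genes. The sources used here give neither the read length nor the handling of reads with several matches, and the part of shared sequence in the signals was not tested.

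The 12 annotated sls-1 genes, which encode the SL1 RNA, had 0 listed genes in each of the 4 lists. In their windows only 0% to 29.5% of 36-base words were unique, with a median of 4.70%, so an empty list there does not show an absence of binding. Of a list of 19 genes of SL RNA transcription and trans-splicing, 17 were annotated under those symbols, among them the SNAPc subunit genes, the SL RNP protein genes sna-1 and sna-2, and the genes of the U2AF splice-site recognition factor. None of the 17 was listed in the IDR set and 2 were listed in the joint list, where 14.3% of all protein-coding genes were. For cpf-2, which encodes a subunit of the cleavage stimulation factor, the joint signal was 27.1 (rank 400) at 91 bp upstream of the 5′ end, with 6.85 in replicate 1 (rank 20327) and 16.5 in replicate 2 (rank 378). For uaf-1, which encodes the large U2AF subunit, the joint region had a signal of 17.3 (rank 3737). It lay 13824 bp downstream of the 5′ end, past the 3′ end of the gene. The strongest replicate regions lay elsewhere, at 12482 bp in replicate 1 (11.4, rank 3598) and 12128 bp in replicate 2 (9.18, rank 6086). In the replicate lists 10 of the 17 were listed for replicate 1 and 9 for replicate 2, against 57.9% and 64.2% of protein-coding genes.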

How the data were processed

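The authors' region lists on build ce11 were used: 1 list per replicate, the joint list and the IDR set, with file types and replicate numbers per the labels and the deposited descriptions. The signal column is a score of the authors' peak caller, without a stated scale. The deposited −log10 q-value was read only to show ties and to describe the joint regions outside the IDR set. The sources used here name no aligner, no caller and no IDR threshold. The lists on build ce10 were not used. Genes come from Ensembl release 115. No nuclear gene or region ended past the end of its chromosome in the RefSeq sequence of WBcel235. Midpoints, ranks, distances, offsets, leader forms, pairwise global identity, upstream words and unique words were computed with Python 3.11.15, pandas 2.3.3, pysam 0.24.0 and Biopython 1.88. The distance rule was tested on simulated data. A leader ended at the first AGGT from base 15 onward, cut between AG and GT. No hypothesis test was run, since the genes were chosen on these signals. The members and lists were chosen with earlier results of these data known. The rule for naming genes took the picked genes, all other sls-2 genes, the nearest or overlapping genes, and pathway genes with a joint region. Outside it, 2 snRNA genes were named after their values had been seen, and sna-1 and sna-2 to describe the pathway list.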

Additional observations from a re-analysis of the deposited data

How the results depend on the processing

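By the main rule 6 sls-2 genes were listed in the IDR set. The number was 5 or 6 with windows of 250 or 1000 bp, the 5′ end in place of the gene body, or overlap in place of distance. With the stronger 50% of the IDR set it was 4. When the strongest 164 regions of 1 replicate stood in for the IDR set, it was 5 for replicate 1 and 6 for replicate 2. In the joint list 7 to 11 were listed, against 10, and in both replicates 7 to 10, against 9. The share of all genes was not computed under the changed settings, so these counts have no background share beside them. The median offset of 58 bp was 57 bp from the interval centre and 16 to 17 bp from 1 replicate alone. The median rank of 45 was 31 among nuclear regions only. The cause of these shifts was not tested, apart from the last, where the mitochondrial regions ranked above leave the ranking. Unknown depth limits all signals, as does the fact that the reads of the authors' control were not analysed here. No paired analysis was possible because no test compares groups.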
